A study of Mus musculus with 48 samples.

Results

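Colon RNA of 8 male mice collected at circadian time 5 (CT5) was compared between genotypes, 4 Bmal1IEC-/- mice against 4 Bmal1fl/fl mice, across all genes of the count table. Libraries were chosen by the genotype and circadian time in their labels, 8 of 48 in the series, which holds both genotypes at CT1, CT5, CT9, CT13, CT17 and CT21 with 4 mice each. Bmal1IEC-/- mice (Bmal1iec-/- in the labels) carried floxed Bmal1 alleles and Villin-Cre, a recombinase driven by a promoter active in intestinal epithelial cells, and their littermates (Bmal1 flox/flox) carried the same floxed alleles. The mice were on the C57BL/6J background, were 18 to 20 weeks old, had chow at all times and were killed on day 2 of constant darkness. The remaining cells of the colon wall keep Bmal1 in both genotypes, and the tissue was sequenced whole.

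BMAL1, encoded by Arntl, pairs with CLOCK or NPAS2 and switches on genes that carry E-box sequences, among them the Period and Cryptochrome genes, whose proteins then inhibit it. The same pair drives Nr1d1 and Nr1d2, which encode the nuclear receptors REV-ERBα and REV-ERBβ. These repressors bind Rev-erb elements in Arntl, Npas2, Cry1 and Nfil3 and hold those genes low for part of the day. In the gut the loop times mucus, transport, lipid uptake and xenobiotic metabolism. CT5 falls in the rest phase of mice, in the subjective day, and the comparison asks which colon transcripts depend on the epithelial clock at that hour.

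Counts on genes summed to between 3435263 and 4331962 per mouse at CT5. At 0 counts, a level of up to 3 counts would still be possible in a mouse, by counting error alone. Pairs of mice of one group differed by more than counting error, with a chi-square per gene of 2.79 to 6.62 over 12 pairs. The tissue label held: the summed normalized counts of 12 colon marker genes ran from 98785 to 129770 per mouse against 2477 to 3493 for 15 small intestine markers, although Hoxb13, a marker of the distal colon, had 0 counts in all 8 mice. Epithelial markers overlapped between genotypes, with sums of 39355 to 44668 in Bmal1IEC-/- and 35919 to 44751 in Bmal1fl/fl mice. Smooth muscle, fibroblast, plasma cell and myeloid marker sums overlapped too. Of the 10 tuft cell markers, the sum ran from 2993 to 3068 in Bmal1IEC-/- mice and from 3480 to 4161 in controls, without overlap. Cd24a held most of that sum, which is thus mainly a reading of this gene, and had an adjusted p of 0.038 with a log2 difference of -0.37. Of the 6 tuft cell markers tested, 0 were called. Of these, 5 had a negative difference and 1, Sh2d6, a positive one (0.29), with a median of -0.13. In such bulk tissue, fewer cells of a type and less RNA per cell cannot be told apart.

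Of 13477 genes tested at CT5, 40 differed between genotypes with an adjusted p under 0.05 and a fold change over 1.5, a share of 0.297%. Of these, 26 (0.193% of the genes tested) were higher and 14 (0.104%) lower in Bmal1IEC-/- mice. Genes were called by the quasi-likelihood test of edgeR, and all adjusted p-values (Benjamini-Hochberg) at CT5 come from this fit. Cry1, Ggh and Glipr2 were among the smallest p-values of the higher genes, and 2210407C18Rik, Nr1d2 and Sis had the smallest of the lower ones. Among genes with a mean of at least 20 normalized counts in one genotype, the largest differences belonged to Retnlb, Lingo4, Cry1, Cyp3a11 and Agbl2 upwards and to Sis, Gzma and Slc22a4 downwards. Over all genes the median log2 difference was -0.01. In each of the 40 genes the 4 mice of one genotype lay apart from the 4 of the other, as they did in 4.1% of all genes tested. Across all genes, 54 had an adjusted p under 0.05 at any fold, 37 higher and 17 lower, and 881 had an unadjusted p under 0.05. DESeq2 called 55 genes with the same thresholds and all 40 were among them.

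**Figure D1:**
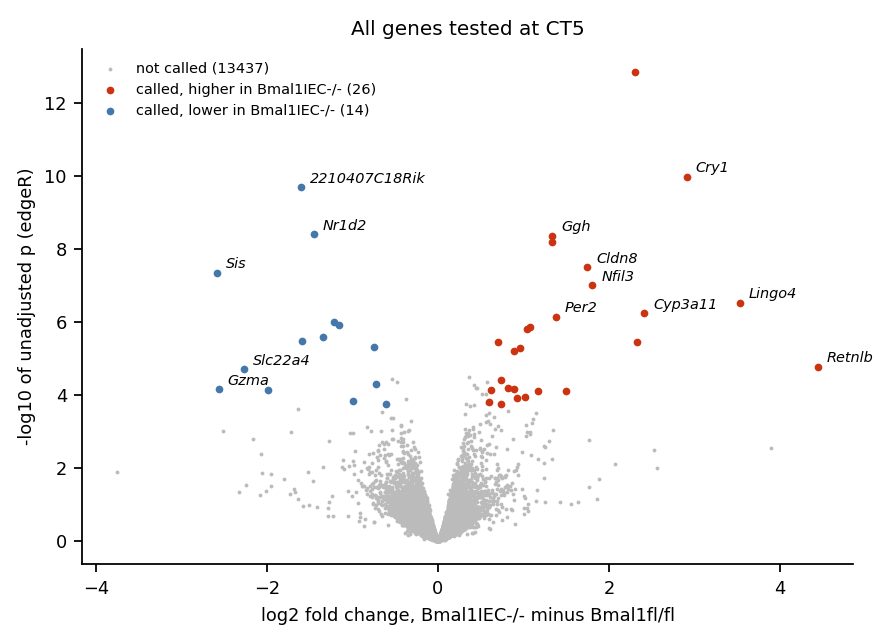
Each point is 1 of 13477 genes at CT5, with the log2 fold change (Bmal1IEC-/- minus Bmal1fl/fl, 4 mice each) on the x axis and -log10 of the unadjusted edgeR p on the y axis. The 26 genes called higher are red and the 14 called lower are blue, with Cry1 far to the upper right and 2210407C18Rik to the upper left.

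The deleted gene was first examined in each mouse. Arntl (chr7:113207465-113314126, mm10) had 118, 120.0, 122 and 133 normalized counts in Bmal1IEC-/- mice and 104, 122, 128 and 144 in controls. The groups overlapped, and the log2 fold change was -0.02 with a standard error (SE) of 0.12 (adjusted p = 0.993). Reads were summed over all exons of a gene, so that removal of a floxed exon cannot be read from this count, and cells without Villin-Cre add to it. Control means passed from 260.0 ± 18 (SD, n = 4) at CT1 through 124 ± 16.5 (SD, n = 4) at CT5 to 26.4 ± 8.81 (SD, n = 4) at CT9, whereas Bmal1IEC-/- means at CT5 and CT9 were 123 ± 6.81 and 114 ± 31.1 (SD, n = 4 each). The means of the genotypes lay close together at CT5, where the control curve crossed that of the Bmal1IEC-/- mice.

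Among 5 clock activators tested, 1 was called, higher in Bmal1IEC-/- mice. Npas2, the partner that can stand in for CLOCK, had 246, 264, 309 and 333 normalized counts in Bmal1IEC-/- mice and 112, 133, 142 and 169.9 in controls. Its log2 fold change was 1.04 (SE 0.13, adjusted p = 0.00132). Clock itself did not pass the test (-0.02, SE 0.13, adjusted p = 0.996), nor did Arntl2 (-0.48, adjusted p = 0.878) or Rora, a widely expressed nuclear receptor that activates clock genes (-0.37, adjusted p = 0.602). For Rora the groups did not overlap, with 48.6 to 68.9 normalized counts in Bmal1IEC-/- mice and 70.9 to 81.8 in controls.

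Of 5 tested genes known to be repressed through Rev-erb elements, 3 rose (Cry1, Nfil3 and Npas2), the other two being Arntl and Clock, and the median log2 fold change was 1.04 against -0.01 over all genes. The Rev-erb genes themselves fell. Nr1d1 had 152, 157, 199 and 252 normalized counts in Bmal1IEC-/- mice against 391, 406, 439 and 536 in controls, and its log2 value fell by 1.22 (SE 0.15, adjusted p = 0.00106). Nr1d2 had 152, 169, 175 and 218 against 448, 472, 483 and 547, and fell by 1.45 (SE 0.11, adjusted p = 1.19e-05). Both genes were lower in each Bmal1IEC-/- mouse than in any control. Nr1d1 overlaps Thra on the opposite strand, and whether the counting used strand is not given in the sources used here; Thra had 302 and 297 normalized counts in the means of the genotypes. Nfil3, a repressor of D-box genes, had 76.9, 89.9, 90.4 and 92.8 normalized counts in Bmal1IEC-/- mice and 18.5, 21.5, 25.3 and 33.6 in controls (log2 fold change 1.81, SE 0.18, adjusted p = 0.000148).

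The promoters of the clock genes and of other called genes were read for the letters of the elements named above. RefSeq windows of 250 bases before to 50 after an annotated start (GRCm38.p6, the build of mm10) were at hand for 19 of 26 higher and 12 of 14 lower genes. The E-box was searched as CACGTG, the Rev-erb element as ANTAGGTCA and the D-box, bound by DBP and NFIL3, as TTATGTAA, on both strands; no pair of these motifs overlaps in the windows shown. The E-box was in 2 of the 19 higher genes (Cry1 and Sgk1) and in 1 of the 12 lower genes (Slc22a4), against 11.4% of the genes tested at CT5 and 8.09% of all genes with a window. The Rev-erb element was in 2 of the 19 higher genes (Nfil3 and Cyp3a11) and in 0 of the 12 lower genes, against 0.517% of the genes tested and 0.707% of all genes with a window. The D-box was in none of the called genes with a window, and in 0.653% of the genes tested and 1.11% of all genes. A match is a description of these letters and not a bound site. The windows below are 1 of the deleted gene and those of 3 higher genes that hold a clock element. Not shown are another Arntl window, without a match, and the Sgk1 window with an E-box at base -246. The Cry1 and Npas2 windows held no Rev-erb element. Each window is written 5′ to 3′ along the gene, with the match in capitals.
Cry1, chr10:85185005-85185304, minus strand, E-box at base -60 from the start: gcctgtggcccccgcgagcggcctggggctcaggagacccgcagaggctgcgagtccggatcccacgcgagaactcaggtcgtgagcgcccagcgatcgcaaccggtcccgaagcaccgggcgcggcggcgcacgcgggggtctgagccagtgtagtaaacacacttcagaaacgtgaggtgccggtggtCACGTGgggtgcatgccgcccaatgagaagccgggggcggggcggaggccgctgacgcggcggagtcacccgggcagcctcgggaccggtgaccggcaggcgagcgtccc
Nfil3, chr13:52980990-52981289, minus strand, Rev-erb element at base -12, read on the opposite strand: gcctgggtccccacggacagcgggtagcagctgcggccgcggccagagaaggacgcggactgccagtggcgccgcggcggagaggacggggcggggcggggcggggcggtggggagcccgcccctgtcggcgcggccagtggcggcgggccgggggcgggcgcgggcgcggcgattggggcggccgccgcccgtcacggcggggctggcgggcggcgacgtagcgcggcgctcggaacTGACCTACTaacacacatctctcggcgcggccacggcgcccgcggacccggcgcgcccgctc
Cyp3a11, chr5:145879805-145880104, minus strand, Rev-erb element at base -165: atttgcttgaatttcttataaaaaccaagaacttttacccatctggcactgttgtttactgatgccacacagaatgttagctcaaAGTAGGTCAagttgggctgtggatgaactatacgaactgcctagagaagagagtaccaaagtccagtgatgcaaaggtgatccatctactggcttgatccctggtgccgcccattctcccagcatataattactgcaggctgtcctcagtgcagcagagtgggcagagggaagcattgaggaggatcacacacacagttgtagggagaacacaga
Arntl, chr7:113207261-113207560, plus strand, Rev-erb element at base 29: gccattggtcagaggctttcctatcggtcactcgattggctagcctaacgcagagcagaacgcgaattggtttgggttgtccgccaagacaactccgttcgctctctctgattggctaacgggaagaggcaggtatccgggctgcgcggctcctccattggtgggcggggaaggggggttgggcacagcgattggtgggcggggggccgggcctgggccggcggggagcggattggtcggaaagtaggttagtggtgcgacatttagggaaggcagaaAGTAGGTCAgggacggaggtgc
The Rev-erb matches of Cyp3a11 and Arntl share the same letters, and that of Nfil3 is their reverse complement. At CT5 Nfil3 and Cyp3a11 rose and Arntl did not pass the test.

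The clock repressors divided. Of 16 tested repressors and E-box targets, 4 rose and 2 fell, with a median log2 fold change of 0.09. Those that rose were Cry1, Cry2, Per2 and Tsc22d3, which is also in the list of glucocorticoid-responsive genes and is given there. Cry1 (chr10:85131700-85185064), a core inhibitor of CLOCK and BMAL1, had 224, 238, 268 and 289.6 normalized counts in Bmal1IEC-/- mice and 26.3, 28.0, 32.1 and 49.5 in controls. Its log2 fold change was 2.91 (SE 0.17, adjusted p = 7.16e-07). Cry2 had 265, 271, 282 and 313 normalized counts against 120.5, 132, 169.9 and 183 (log2 fold change 0.89, SE 0.13, adjusted p = 0.00369). Per2, the partner of the cryptochromes, had 143, 143, 150.0 and 155 against 36.0, 58.7, 65.3 and 66.7 (log2 fold change 1.38, SE 0.16, adjusted p = 0.000811). Cry1, Cry2 and Per2 were higher in each Bmal1IEC-/- mouse than in any control.

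The other Period genes did not pass the test. Per1 ranged from 60.5 to 151 normalized counts in Bmal1IEC-/- mice and from 45.2 to 172 in controls, with a log2 difference of -0.05 and an SE of 0.37. Per3 differed by -0.20 (SE 0.18, adjusted p = 0.952). Of the output factors of the PAR bZIP family, which bind D-boxes, Dbp had 46.3, 52.5, 71.6 and 89.0 normalized counts in Bmal1IEC-/- mice and 67.2, 74.2, 92.3 and 121 in controls (log2 difference -0.45, adjusted p = 0.784). Tef and Hlf differed by -0.10 and 0.06 (adjusted p = 0.945 and 0.993). Bhlhe40 and Bhlhe41, E-box repressors, differed by 0.12 and 0.27, Usp2, a clock-driven deubiquitinase, by 0.27, Wee1, a mitotic kinase, by 0.16 and Nampt, an enzyme of NAD synthesis, by 0.00 on the log2 scale, and none was called.

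**Figure D2:**
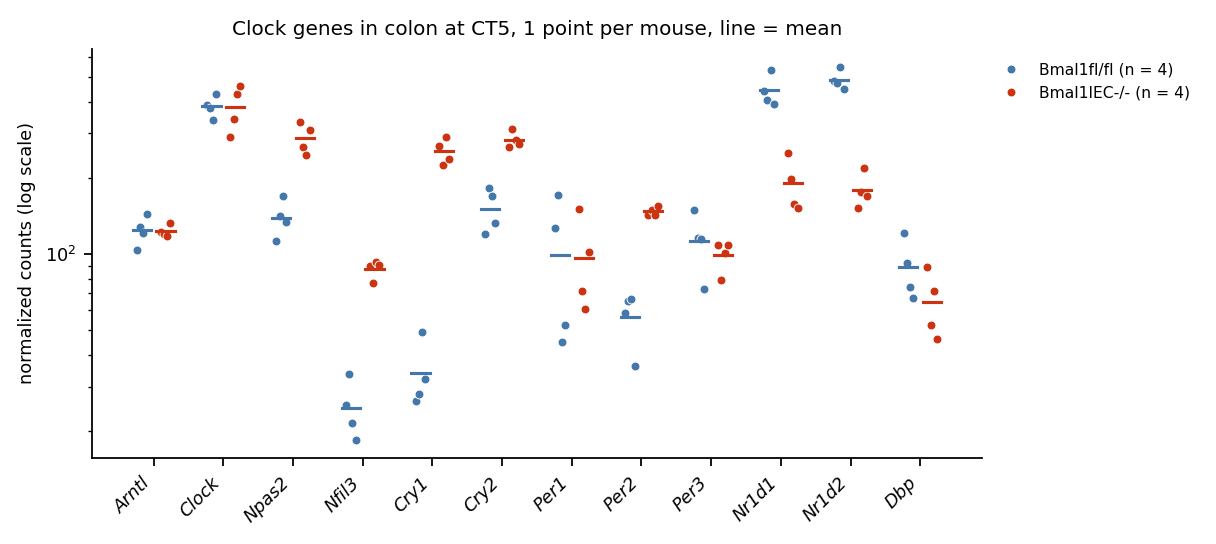
Normalized counts (log scale) of 12 clock genes at CT5, 1 point per mouse with the mean as a line, in 4 Bmal1fl/fl (blue) and 4 Bmal1IEC-/- (red) mice. Cry1, Nfil3, Npas2, Cry2 and Per2 lie higher and Nr1d1 and Nr1d2 lower in each Bmal1IEC-/- mouse than in any control, while Arntl, Clock, Per1, Per3 and Dbp overlap.

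Goblet cell and antimicrobial genes were examined next. Of 16 tested goblet cell and mucus genes, 2 rose and 0 fell, and the median log2 fold change was 0.04. DESeq2 called 2 of the 16 higher and 1 lower. At an unadjusted p under 0.05 in the edgeR fit, 5 were higher and 2 lower, beside 3.38% higher and 3.16% lower over all genes tested. Retnlb, which encodes a resistin-like protein secreted by goblet cells, had 54.4, 62.0, 154 and 396 normalized counts in Bmal1IEC-/- mice and 3.73, 6.07, 8.60 and 11.7 in controls. The groups were far apart but the Bmal1IEC-/- mice differed among themselves, as 166 ± 159 (SD, n = 4) against 7.52 ± 3.41 (SD, n = 4) shows. The log2 fold change was 4.44 (SE 0.69, adjusted p = 0.00954). Without control mouse SV443 the adjusted p was 0.0656 and the log2 fold change 4.20, and without Bmal1IEC-/- mice SV477 and SV478, the highest in Retnlb, the log2 fold change was 2.94 (adjusted p = 0.00115). Zg16, a lectin of the mucus layer, rose from 4455 ± 509 to 6898 ± 1120.0 normalized counts (SD, n = 4 each; log2 fold change 0.62, adjusted p = 0.0256). Zg16 was called in 5 of 13 alternative fits, and its adjusted p was highest, at 0.198, in the fit of 12 groups and 0.0986 without control mouse SV443. Tff2, a trefoil peptide, had 0 counts in all 4 Bmal1IEC-/- mice and 3.23, 5.06, 6.53 and 9.74 normalized counts in controls, too few to be tested at CT5. Its mean was also lower in Bmal1IEC-/- mice at each other time. The means were 0.514 (n = 2) against 8.94 at CT1, 0.693 against 7.998 at CT9 and 0 against 4.04 at CT13. At CT17 they were 0.251 against 18.1 and at CT21 0.251 against 8.70 (n = 4 in all groups but the first). With so few counts the size of the difference is uncertain, and a test over these times is not given here. Retnlb, Tff2, Ffar2, Hc and Abcc2 were singled out by the study in these animals, so that their direction here is not independent evidence.

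Of 15 tested antimicrobial and inflammatory epithelial genes, 0 were called. Their median log2 difference was 0.36, and 12 of the 15 differences were positive, beside 6476 of 13477 over all genes tested. At an unadjusted p under 0.05, 5 were higher and 1 lower, beside 3.38% higher and 3.16% lower over all genes tested. The values named next were chosen after they were seen. Pigr, the receptor that carries IgA into the lumen, had an adjusted p of 0.017 but a log2 difference of 0.36, under the fold threshold. Ccl28, a chemokine that draws IgA-producing cells, differed by 0.56 (adjusted p = 0.08) and Saa3, an acute-phase apolipoprotein, by 1.11 (adjusted p = 0.095). Of 6 gasdermins, the pore-forming proteins of pyroptosis, 0 were called, and their log2 differences ran from -0.08 for Gsdme to 0.54 for Gsdma with a median of 0.15. The Gsdmc paralogs are nearly identical, so the counts of each are uncertain.

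Among the tested genes of the epithelial lists, the strongest loss was that of a brush border enzyme. Sis encodes sucrase-isomaltase, which splits sucrose and starch products and is best known from the small intestine. It had 27.9, 36.6, 46.4 and 62.1 normalized counts in Bmal1IEC-/- mice and 174, 238, 242 and 362 in controls. Its log2 value fell by 2.58 (SE 0.24, adjusted p = 7.59e-05), and each Bmal1IEC-/- mouse was below each control. Sis was the single call among 14 tested brush border enzymes, whose median log2 difference was -0.02. Of the small intestine markers other than Sis, 0 of 7 tested were called, with a median log2 difference of 0.02.

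Among 30 tested genes of ion and water transport, 2 rose and 1 fell, with a median log2 difference of -0.05. Slc34a2, a phosphate transporter, had 114, 140.1, 156 and 175 normalized counts in Bmal1IEC-/- mice and 61.8, 77.4, 79.6 and 95.4 in controls (log2 fold change 0.89, SE 0.16, adjusted p = 0.0253). Sgk1, the kinase that stimulates the epithelial sodium channel downstream of corticosteroids, had 577, 619, 891 and 1210.4 against 249.5, 370.0, 383 and 448 (log2 fold change 1.18, SE 0.21, adjusted p = 0.0262). Slc13a1, a sulfate transporter, had 132, 147, 150.0 and 174 against 204, 228, 262 and 298, and fell by 0.73 on the log2 scale (SE 0.13, adjusted p = 0.0222). The groups of these 3 genes did not overlap, but Slc34a2, Sgk1 and Slc13a1 were called in 6, 7 and 7 of 13 alternative fits. The highest adjusted p over these fits was 0.723 for Slc34a2, in the fit of 12 groups, and 0.106 for Sgk1 and 0.0971 for Slc13a1 without Bmal1IEC-/- mouse SV478. Without Bmal1IEC-/- mouse SV440 it was 0.121 for Slc34a2. Slc22a4, a carrier of ergothioneine and carnitine, fell by 2.27 (SE 0.36, adjusted p = 0.0107), from 19.6, 20.4, 21.3 and 40.9 normalized counts in controls to 3.03, 4.69, 6.29 and 6.78. Its adjusted p was 0.0608 without mouse SV440 and 0.12 without mice SV477 and SV478, the highest of the 13 fits.

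Tight junction genes held 1 call among 15 tested, with a median log2 difference of 0.08. Cldn8, a claudin that seals the distal colon against sodium and chloride, had 576, 608, 612 and 732 normalized counts in Bmal1IEC-/- mice and 126, 166, 214 and 243 in controls. The log2 fold change was 1.75 (SE 0.16, adjusted p = 6.16e-05), and the lowest Bmal1IEC-/- mouse had more than the highest control.

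**Figure D3:**
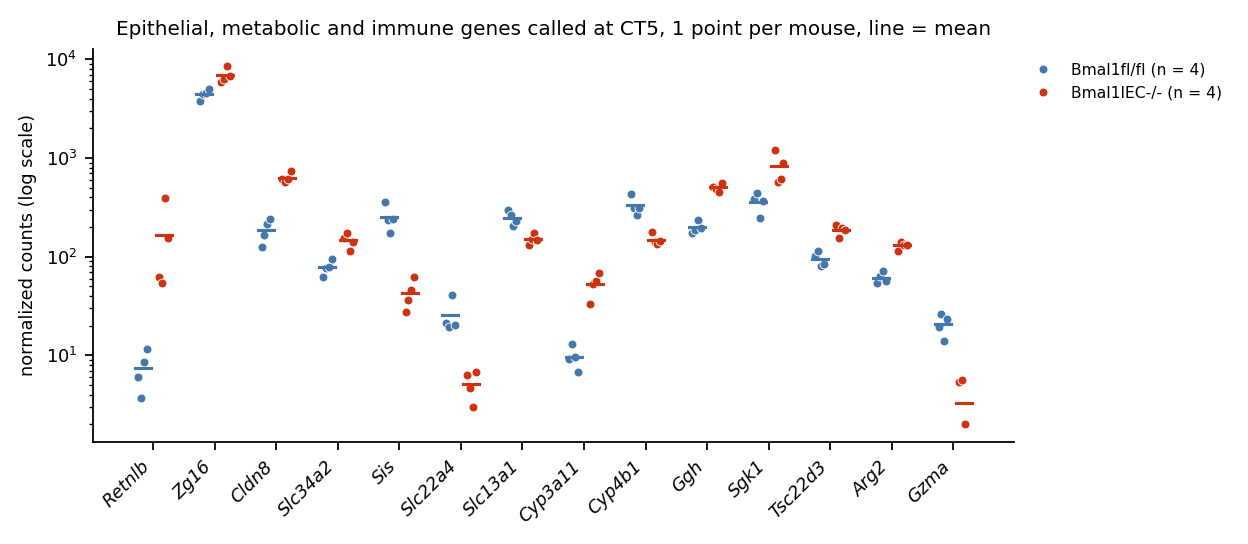
Normalized counts (log scale) at CT5 of 14 called genes of the epithelium, metabolism and immune cells, 1 point per mouse with the mean as a line, in 4 Bmal1fl/fl (blue) and 4 Bmal1IEC-/- (red) mice. One Bmal1IEC-/- mouse with 0 counts of Gzma has no point on the log axis. The 4 Bmal1IEC-/- mice spread from 54.4 to 396 in Retnlb and stay close together in Cldn8.

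Of 43 tested genes of xenobiotic metabolism and efflux, 1 rose and 1 fell, with a median log2 difference of 0.02. Cyp3a11, a main mouse cytochrome of drug and bile acid oxidation, had 33.3, 52.5, 56.5 and 68.9 normalized counts in Bmal1IEC-/- mice and 6.82, 9.11, 9.68 and 13.1 in controls (log2 fold change 2.41, SE 0.28, adjusted p = 0.000704). As one of the closely related Cyp3a genes, its counts are uncertain. Cyp4b1, a cytochrome of fatty acid and xenobiotic oxidation, had 133, 142, 143 and 177 against 264, 314, 314 and 432, and fell by 1.15 (SE 0.14, adjusted p = 0.00116). Both genes kept the genotypes apart in every mouse. At an unadjusted p under 0.05, 11 members of the list were higher and 8 lower, against the shares of all genes given above. Abcc2, an efflux pump for conjugates and bile pigments, had 4.50, 5.65, 13.1 and 15.1 normalized counts against 24.7, 25.3, 31.7 and 38.5 (log2 difference -1.64, SE 0.33) and missed the threshold at an adjusted p of 0.06. DESeq2 called it with an adjusted p of 0.00875. Abcg2, an efflux pump for urate and dietary toxins named after its values were seen, had an adjusted p of 0.02 and a log2 difference of 0.57, just under the fold threshold.

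Genes of fatty acid oxidation and targets of PPAR receptors held 0 calls among 23 tested. Of the 23 differences 21 were positive, beside 6476 of 13477 over all genes tested, and the median was 0.16 on the log2 scale. At an unadjusted p under 0.05, 8 were higher and 1 lower, beside 3.38% higher and 3.16% lower over all genes tested. The list was not tested as a set. Of 31 tested genes of sterol and fatty acid synthesis, 0 were called, with a median of 0.03. Ggh, a lysosomal hydrolase of folate polyglutamates, belonged to no list and was among the most clearly separated genes, with 454, 486, 512 and 565 normalized counts in Bmal1IEC-/- mice and 175, 188, 198 and 234 in controls (log2 fold change 1.34, SE 0.10, adjusted p = 1.19e-05).

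Among 14 tested glucocorticoid-responsive genes, 2 rose, Tsc22d3 and Sgk1, and the median log2 difference was 0.00. Tsc22d3, which encodes the glucocorticoid-induced leucine zipper protein, had 156, 186, 196 and 212 normalized counts in Bmal1IEC-/- mice and 80.7, 84.7, 102 and 115 in controls (log2 fold change 0.96, SE 0.13, adjusted p = 0.00317). Bmal1IEC-/- mouse SV439 had the highest count of both genes and, in its group, of Per1, whose gene also responds to glucocorticoids. Among controls, mouse SV443 was the highest in Tsc22d3, Sgk1 and Per1, with 115, 448 and 172 normalized counts. The cause was not tested. Heat shock, immediate early and MHC class II lists held 0 calls, with medians of -0.01, 0.04 and -0.05.

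Few immune genes differed. Of 17 tested genes of T-cell apoptosis and recruitment, a theme the study drew from these animals, 1 rose. Arg2, a mitochondrial arginase, had 115, 132, 132 and 142 normalized counts in Bmal1IEC-/- mice and 53.7, 57.4, 64.3 and 71.0 in controls (log2 fold change 1.08, SE 0.13, adjusted p = 0.00123). The median of the list was -0.04. Arg2 overlaps Vti1b on the other strand, with 262 and 252 normalized counts in the group means. Gzma, a granule protease of cytotoxic T cells and natural killer cells, had 0, 2.02, 5.40 and 5.62 normalized counts against 14.0, 19.2, 23.4 and 26.1 in controls. Its log2 value fell by 2.56 (SE 0.46, adjusted p = 0.0253), and it was called in 7 of 13 alternative fits, with an adjusted p of 0.11 without control mouse SV443 and at most 0.144, without Bmal1IEC-/- mice SV477 and SV478. The summed T-cell markers (10 genes) ran from 69.6 to 105 in Bmal1IEC-/- mice and from 94.6 to 135 in controls. All 5 tested members had a negative log2 difference with 0 called, beside 7001 negative of 13477 over all genes tested. The part of the T-cell markers in the Gzma result was not tested.

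Other immune lists held no calls. The 23 tested interferon-stimulated genes had a median log2 difference of -0.18, with 17 negative, 3 lower at an unadjusted p under 0.05 and 0 called. Over all genes tested, 7001 of 13477 differences were negative and 3.16% were lower at that unadjusted p. The 15 complement genes had a median of 0.01, and Hc, which encodes complement C5, had 14.1 ± 4.99 normalized counts in Bmal1IEC-/- and 22.8 ± 5.21 in Bmal1fl/fl mice (SD, n = 4 each; adjusted p = 0.679). Ffar2, a receptor for short-chain fatty acids, had 142, 179.6, 208 and 225 against 109, 137, 149 and 157 (log2 difference 0.45, adjusted p = 0.453). Cxcr4 and Vcam1, of leukocyte homing, differed by 0.10 and 0.00 (SEs 0.35 and 0.20). Cell cycle and Wnt or stem cell lists held 0 calls among 32 and 18 tested genes, with medians of -0.07 and -0.05. Fat markers had a median of -1.41 over 5 tested genes and 0 calls, and their sum varied from 96.5 to 558 in Bmal1IEC-/- mice and from 136 to 1011 in controls. Of 14 pancreas markers 7 had 0 counts in all 8 mice.

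Several called genes have no place in a list. Lingo4, a gene of a neuronal transmembrane protein family, had 15.9, 21.6, 22.6 and 26.2 normalized counts in Bmal1IEC-/- mice and 0.974, 1.08, 2.02 and 2.80 in controls (log2 fold change 3.53, SE 0.38, adjusted p = 0.000403). The controls lie at or under the limit of 3 counts given above, so that the size of this change is uncertain, and reads that run on from a neighbouring gene cannot be told apart from its own in these counts. Agbl2, a tubulin deglutamylase, and Mtch2, a mitochondrial outer membrane insertase, lie 12717 bases apart on the same strand of chromosome 2. Agbl2 had 67.4, 99.4, 142 and 149 normalized counts against 9.11, 23.4, 24.2 and 34.4 (log2 fold change 2.32, adjusted p = 0.00244), and Mtch2 had 1435, 1604, 1716 and 1885 against 931, 959.6, 1051 and 1119 (log2 fold change 0.70, adjusted p = 0.00244).

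Further genes without a list are given briefly. Glipr2, a protein of the Golgi surface, rose by 1.33 on the log2 scale (SE 0.11, adjusted p = 1.45e-05), from 105 ± 9.0 to 266 ± 25.7 normalized counts (SD, n = 4 each). 2210407C18Rik, a gene of no known role, fell by 1.60 (SE 0.10, adjusted p = 9.11e-07), from 1064, 1101, 1126 and 1266 normalized counts in controls to 331, 344, 414 and 422. Thbs4, an extracellular matrix thrombospondin, fell by 1.59, Smim24, a small membrane protein, by 0.75 and the long noncoding RNA Gm1965 by 1.34 (adjusted p = 0.00244, 0.00315 and 0.00209). The remaining called genes, named after their values were seen, are Ier5, Tcf7l1, Dab1, Fcho1, E2f2, Coq8a and Tfip11 among the higher and Tgm3, 5430427M07Rik and 3110039I08Rik among the lower, with log2 fold changes from -1.99 for Tgm3 to 1.5 for Dab1 and adjusted p from 0.0183 to 0.0461. Each of these 10 lost its call in at least 5 of 13 alternative fits. Coq8a, 5430427M07Rik and Tfip11 overlap expressed genes on the opposite strand (Cdc42bpa, Cep128 and Srrd). The mean normalized counts of Srrd were 28.1 in Bmal1IEC-/- mice and 15.1 in controls (log2 difference 0.87, adjusted p = 0.191), and its part in the Tfip11 result was not tested. Those of Cdc42bpa were 390.2 and 392, and those of Cep128 30.7 and 36.2.

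The same genes were then read in mice killed at the other 5 times, which share no animal with the CT5 comparison. In a fit of genotype and time over these 38 mice, 211 of 14938 genes were called (1.41%). Of the 40 genes called at CT5, 39 had the same direction at the other times and 32 were called in it, 20 of the 26 higher and 12 of the 14 lower genes. The exception in direction was Per2, with a log2 difference of -0.03 (SE 0.16, adjusted p = 0.939) at the other times. Retnlb (4.13, SE 0.45), Sis (-2.96, SE 0.14), Cldn8 (2.22, SE 0.17), Cyp3a11 (2.82, SE 0.28) and Ggh (1.55, SE 0.06) had log2 fold changes near or beyond those of CT5. The 8 genes not called there were Per2, Cry2, Tsc22d3, Ier5, Tcf7l1, Coq8a, 5430427M07Rik and 3110039I08Rik. In the other direction, 165 of the 211 genes called at the other times were tested at CT5, and 159 of them had the same sign. Of these, 103 also had an unadjusted p under 0.05 in that direction and 32 were called. The share of all genes tested with the same sign in both fits is not given here.

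**Figure D4:**
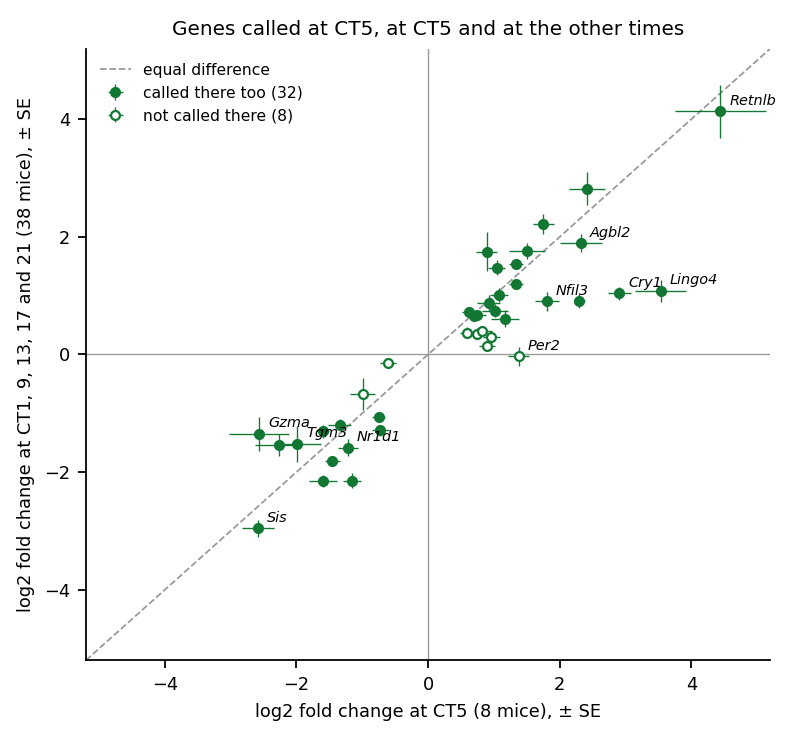
The log2 fold change (Bmal1IEC-/- minus Bmal1fl/fl, ± standard error) of the 40 genes called at CT5, in 8 mice at CT5 (x axis) and in 38 mice at the other 5 times (y axis), with the dashed line marking equal differences. The 32 filled points were called at the other times in the same direction. Cry1, Lingo4 and Per2 lie below the line.

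Whether the CT5 difference itself departed from that at other times was tested as the difference between the log2 fold change at CT5 and its mean over the other 5 times, in 46 mice. Of 15073 genes, 4 passed at an adjusted p under 0.05 (0.0265%), and 643 had an unadjusted p under 0.05. Cry1 was 1.80 higher at CT5 than in the mean of the other times (SE 0.19, adjusted p = 3.25e-08), and CT5 was the lowest of its 6 control means. Its log2 difference was 2.91 at CT5 and also large at the neighbouring times, 1.49 at CT1 and 2.11 at CT9. At CT13, CT17 and CT21 it was 0.62, 0.61 and 0.72. Cry1 controls ran from 34.0 ± 10.6 (SD, n = 4) at CT5 to 191 ± 23.2 (SD, n = 4) at CT21, and Bmal1IEC-/- means from 255 at CT5 to 321 at CT1.

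Ces1d and 3110001I22Rik also passed and were not called at CT5. Ces1d, a carboxylesterase of lipid and drug hydrolysis and one of a cluster of similar genes, had 567, 602, 646 and 682 normalized counts in Bmal1IEC-/- mice and 661, 763, 811 and 933 in controls, a log2 difference of -0.35 (adjusted p = 0.31). At the other times it was lower in Bmal1IEC-/- mice, with a log2 difference of -1.43 (SE 0.09, adjusted p = 3.7e-16). By time this difference was -1.47 at CT1, -0.80 at CT9, -1.61 at CT13, -1.86 at CT17 and -1.42 at CT21. The CT5 value departed from the mean of these times by 1.08 (SE 0.15, adjusted p = 3.82e-05). 3110001I22Rik, of no known role, went the other way, with 9.37, 11.3, 12.6 and 18.2 normalized counts against 22.4, 25.3, 28.2 and 29.0 at CT5 and a departure of -1.19 (SE 0.23, adjusted p = 0.0202). Lingo4 (2.27, SE 0.49) and Per2 (1.14, SE 0.24) missed the threshold with adjusted p = 0.0862 each.

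Across the 6 times, 32 of the 40 genes called at CT5 had the same direction of difference at each time, 20 higher and 12 lower. CT5, where these genes were chosen, is 1 of the 6, and the share over all genes tested is not given here. CT5 held the largest of the 6 differences for 6 higher genes (among them Cry1, Lingo4, Cry2, Tcf7l1 and Tsc22d3) and for 2 lower genes (2210407C18Rik and 3110039I08Rik). Per2 changed sides: its mean was higher in Bmal1IEC-/- mice at CT1 (191 ± 0.486, SD, n = 2, against 38.6 ± 10.4, SD, n = 4) and CT5 and lower at CT13 (413 ± 38.7 against 784 ± 159, SD, n = 4 each). Nr1d1 and Nr1d2 were lower at each of the 6 times. Per3 and Dbp did not pass at CT5, while pooled over the other 5 times their log2 differences were -1.02 and -1.0 (adjusted p = 1.75e-08 and 1.15e-05). At CT1 both means were higher in Bmal1IEC-/- mice (72.5 against 53.3 normalized counts for Per3, 16.7 against 9.39 for Dbp), and at CT21 Dbp had 18.1 against 18.6. In the test of CT5 against the other times the adjusted p was 0.821 for Per3 and 1 for Dbp.

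**Figure D5:**
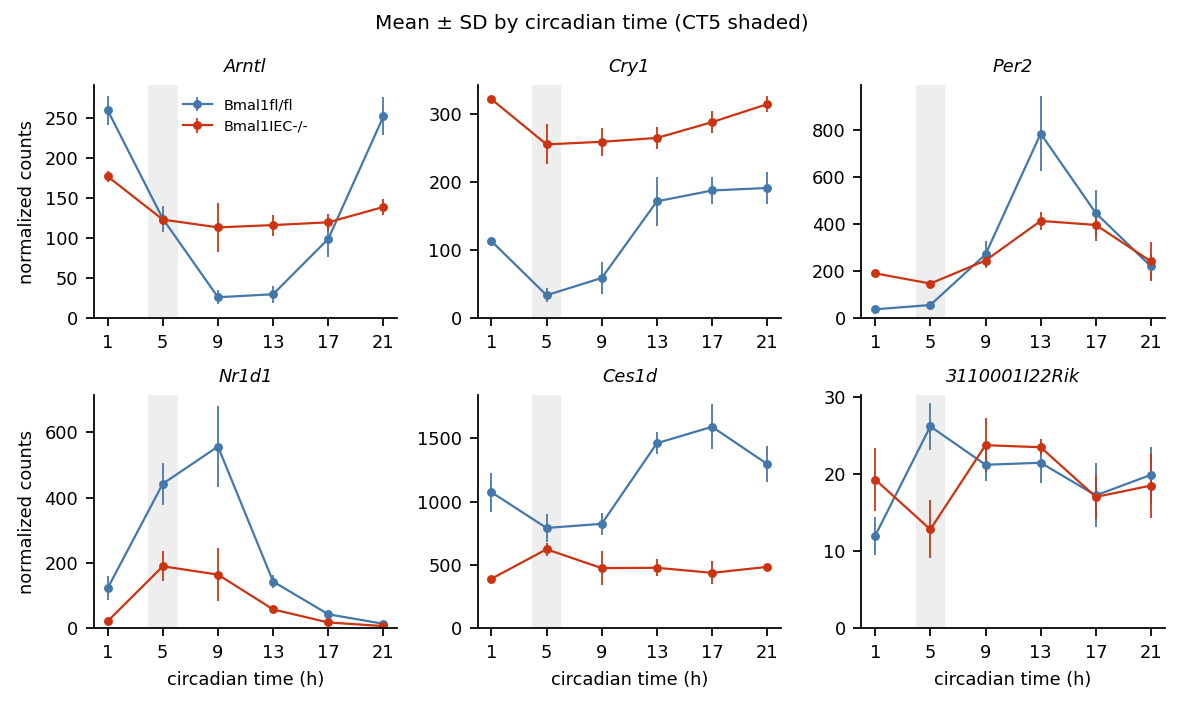
Mean ± SD of normalized counts by circadian time for 6 genes in Bmal1fl/fl (blue) and Bmal1IEC-/- (red) mice, 4 mice per point except 2 at CT1 in Bmal1IEC-/-, with CT5 shaded. The Arntl curves cross near CT5, Cry1 reaches its lowest control mean at CT5, Per2 changes sides between CT5 and CT13, Nr1d1 stays lower throughout, and Ces1d comes closest between genotypes at CT5.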

How the data were processed

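Polyadenylated colon RNA was sequenced by the authors as stranded paired-end libraries. Per the submitters' processing notes they used FastQC 0.11.5, Trimmomatic 0.39, STAR 2.7.5c with mm10, SAMtools 1.3.1, featureCounts 1.4.6 and DESeq2 1.22.0. What the authors deposited is 1 table of raw read counts (whole numbers) for each gene and mouse. The methods state that reads on exons were counted if they had sufficient mapping quality and touched a single feature. The annotation release and the strand setting are not given in the sources used here. Of 55401 listed genes, 55141 matched GENCODE vM21 by identifier, which gave symbols and positions.

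The counts of the 8 CT5 mice were filtered with filterByExpr and tested with edgeR 4.0.16 (R 4.3.3), using its quasi-likelihood F test after TMM scaling, with Benjamini-Hochberg adjustment of p. A gene was called at an adjusted p under 0.05 and a fold change over 1.5. The other times were fitted with genotype and time, and the departure of CT5 as a contrast of 12 group means, over 46 mice. Replicates SV384 and SV385 at CT1, which the study's tables leave out, were used in an alternative only. To obtain normalized counts, size factors of the 46 mice were taken from DESeq2 1.42.0. The sources used here name no batch, and none was modelled; p-values measure the spread between single mice. Depth at CT5 was 3435263 to 4331962 counts per mouse.

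Named genes were the clock list, the 8 smallest p-values and the 5 largest changes in each direction (mean of at least 20 normalized counts), up to 4 called genes of each list, the 5 smallest p-values for the departure of CT5, and genes the study discusses; genes without a symbol were left out. Some genes are not reported here by name, and the list counts leave them out. The comparison and the gene lists were chosen with earlier results of these data known. The alternatives were another normalization, DESeq2's test, no filter on low counts, other thresholds, a fit of all 12 groups, all 48 mice, and fits that left out mice. The model fits at CT5, at the other times and of the departure were tested on simulated data. Figures were drawn with matplotlib 3.10.9.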

Additional observations from a re-analysis of the deposited data

Results flagged for a closer look

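In control mice, Slc22a4 had 40.9 normalized counts in mouse SV446 and 21.3 or fewer in the other control mice, a gap of 0.921 of the group's range. It was the single sample set apart in this way among 123 groups of 4 mice examined, and chance would set apart about 1 group in 20. Without this mouse the gene kept its call.

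The genotype difference at CT5 departed from the mean of the other 5 times, by a test of the difference itself, for Cry1 (1.80 on the log2 scale), Ces1d (1.08) and 3110001I22Rik (-1.19). With each CT5 mouse left out in turn, Cry1 and Ces1d passed this test in each of the 8 fits. 3110001I22Rik passed in 2 of the 8 fits and had 9.37 to 29.0 normalized counts per mouse at CT5.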

How the results depend on the processing

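Without a filter on low counts 185 genes were called at CT5 (101 higher and 84 lower), among them all 40 genes called with the filter and 38 that the filter had removed, 82 of the 185 were called at the other times, and 114 genes departed at CT5 from the other times. A test against the fold threshold itself (glmTreat) left 15 genes, 11 higher and 4 lower. These were the settings that moved the counts by over 1.5 times, apart from single mice. DESeq2's size factors gave 40 calls, DESeq2's test 55, the fit of 12 groups 49, and the fit without Bmal1IEC-/- mice SV477 and SV478, whose numbers lie apart from the others, 32. The fit without those mice held 25 of the 40 genes and lost 3110039I08Rik, 5430427M07Rik, Coq8a, Dab1, E2f2, Gzma, Sgk1, Slc13a1, Slc22a4, Smim24, Tcf7l1, Tfip11, Tgm3, Tsc22d3 and Zg16. The fit of 12 groups lost 5430427M07Rik, Coq8a, Slc13a1, Slc34a2 and Zg16. With each mouse left out in turn, 26 to 45 genes were called (26 without Bmal1IEC-/- mouse SV440, 45 without SV439), 16 to 31 higher, 8 to 14 lower, 21 to 33 also called at the other times, and 3 to 5 departing at CT5. Without control mouse SV443, 29 were called and without Bmal1IEC-/- mouse SV478, 28. The cause of these shifts was not tested.

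All 40 called genes kept their direction in the 13 fits of single genes, and 21 kept their call in each, among them Cry1, Per2, Cry2, Nfil3, Npas2, Nr1d1, Nr1d2, Sis, Cldn8, Cyp3a11, Cyp4b1, Ggh, Glipr2, Arg2 and Thbs4. Genes whose direction turned were all uncalled. Without mice SV477 and SV478 the log2 difference was 0.16 for Per1, -0.00988 for Nampt and -0.10 for Vcam1, which was -0.000301 without the filter. Over the fits that left out 1 mouse, it ran from -0.0902 to 0.0603 for Arntl, -0.12 to 0.10 for Clock, -0.36 to 0.35 for Per1, -0.0597 to 0.277 for Bhlhe40, -0.0486 to 0.162 for Hlf, -0.0105 to 0.021 for Nampt, -0.23 to 0.34 for Cxcr4 and -0.0903 to 0.132 for Vcam1. No paired analysis was possible because the genotypes share no mouse or replicate numbers.

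Depth limits genes with few reads. Lingo4, Gzma, Slc22a4, Tgm3 and Tff2 had under 10 normalized counts per mouse in one genotype, and the size of their changes is uncertain. Only 4 mice per genotype were compared at CT5, so genes without a call are not shown to be equal.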
